A study of Mus musculus with 6 samples.

Results

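Kap, Slco1a1, Cyp7b1, Timd2 and Gusb are 5 mouse genes whose renal transcripts depend on androgen or are more abundant in males. They were taken by symbol from the 24346 genes listed for each library, and all 5 were found and passed the filter on low values, at least 1 FPKM in at least 3 libraries. The libraries come from the renal cortex of 6 C57BL/6 mice kept for 8 weeks on the HF/HC/HS/BA diet. This steatohepatitis diet includes high fat, high cholesterol and bile salt among its parts. Tofogliflozin, which blocks the glucose transporter SGLT2, was mixed into the diet of 3 mice, while the other 3 had no drug. All 6 mice therefore carried the dietary challenge, and mice on standard chow were not analysed here. Sex, age and drug dose are not given in the labels used here.

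In male mice, testosterone acts on proximal tubule cells and sets a programme of secreted proteins, enzymes and transporters that differs from that of females. Kap encodes the kidney androgen-regulated protein, a small secreted product of the proximal tubule and the classic abundant transcript of this programme. Slco1a1 encodes an uptake transporter for organic anions and steroid conjugates, Cyp7b1 the oxysterol 7-alpha-hydroxylase, Timd2 a TIM family receptor that binds H-ferritin, and Gusb the lysosomal beta-glucuronidase, long used as an assay of androgen action in mouse kidney.

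All 5 genes lie on the minus strand in the GRCm38 (mm10) annotation. Kap spans 133849851 to 133853762 on chromosome 6 and has a transcript of 707 bases in 4 exons. Slco1a1 spans 141907282 to 141946962 on the same chromosome, with 14 exons. Cyp7b1 spans 18071950 to 18243338 on chromosome 3, Timd2 spans 46668960 to 46707061 on chromosome 11, and Gusb spans 129989011 to 130003049 on chromosome 5. Each deposited value is for the whole gene, so exons and transcripts are not told apart. Of the 50-base stretches of their annotated transcripts, 0% were shared with another gene for Kap, Cyp7b1 and Gusb. The share was 1.64% for Slco1a1, chiefly with its neighbours Slco1a4 and Slco1a5, and 2.33% for Timd2, chiefly with Havcr1.

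RefSeq promoter windows (GRCm38.p6, 250 bases before to 50 after a start) were matched for 4 of the 5 genes, in 5 windows. Those of Kap, Slco1a1 and Gusb are shown because Kap was the most abundant transcript and because Slco1a1 and Gusb had no overlap between the groups. Capitals mark matches, on either strand, to the TATA box TATAAA or the cyclic AMP response element TGACGTCA. The windows are chr6:133853618-133853917, chr6:141946913-141947212 and chr5:130003000-130003299, each given 5′ to 3′ on the minus strand.
Kap: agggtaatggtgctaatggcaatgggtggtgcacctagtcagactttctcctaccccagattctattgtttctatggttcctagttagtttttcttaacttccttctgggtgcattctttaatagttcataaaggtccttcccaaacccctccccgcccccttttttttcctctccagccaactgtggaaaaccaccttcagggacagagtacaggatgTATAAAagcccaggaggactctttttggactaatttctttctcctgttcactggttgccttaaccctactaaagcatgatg
Slco1a1: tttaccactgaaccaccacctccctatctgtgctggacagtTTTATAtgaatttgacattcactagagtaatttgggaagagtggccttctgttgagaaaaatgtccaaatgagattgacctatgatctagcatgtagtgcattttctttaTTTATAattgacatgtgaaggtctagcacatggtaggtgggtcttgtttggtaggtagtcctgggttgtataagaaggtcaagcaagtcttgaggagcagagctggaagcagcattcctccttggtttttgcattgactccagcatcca
Gusb: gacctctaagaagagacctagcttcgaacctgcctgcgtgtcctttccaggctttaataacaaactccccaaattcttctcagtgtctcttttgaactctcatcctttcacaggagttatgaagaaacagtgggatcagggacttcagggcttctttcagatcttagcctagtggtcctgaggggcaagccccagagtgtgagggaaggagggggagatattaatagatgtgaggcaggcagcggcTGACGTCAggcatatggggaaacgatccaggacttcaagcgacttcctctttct
The Kap window held a TATA box on the gene strand beginning 31 bases before the start. The Slco1a1 window held the same letters only on the opposite strand, 209 and 99 bases before the start, and the Gusb window held TGACGTCA from 4 bases before the start. TATAAA occurred in 13.6% and TGACGTCA in 1.79% of the 32851 promoter windows, and both were picked after the windows had been read. The androgen response motif AGAACA was in 0 of the 5 windows, against 19.0% of all windows, and the palindrome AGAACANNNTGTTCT in 0, against 0.00913%. The C/EBP motif TTGCNNAA matched at 4 places in the upstream Timd2 window, 2 of which overlap, and it occurred in 10.8% of all windows. A match describes letters in a window, and its absence covers only that window.

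The files give FPKM (fragments scaled to transcript length and library size), so levels of different genes can be compared per length. No counts were analysed here. Steps between the lowest values give an estimated depth of 7550000 to 9770000 fragments per library. Kap then rested on about 242000 to 425000 fragments per library, Slco1a1 on 1220 to 4650, and Gusb, the scarcest, on 245 to 629, a counting error of 3.99% to 6.39%. The proximal tubule genes Lrp2, Cubn and Slc34a1 were abundant in every library, their sum lying at 2404 to 2533 FPKM with tofogliflozin and 2592 to 2935 FPKM on the diet alone. The Y-linked genes Ddx3y, Eif2s3y, Kdm5d and Uty summed with Xist to 45.96 to 55.4 FPKM with tofogliflozin and 35.6 to 51.7 FPKM on the diet alone. Xist itself, the transcript of the inactive X chromosome, stayed at or below 0.0388 FPKM in all 6 libraries. Y-linked transcripts thus made up nearly all of that sum in every library. Of the tissues beside the kidney, Adipoq and Plin1 of fat stayed at or below 0.455 FPKM and Cyp11b1 of the adrenal cortex at or below 0.0413 FPKM. Star, also adrenal, lay between 1.02 and 1.29 FPKM, and Alb, of liver, averaged 7.31 ± 0.963 FPKM with tofogliflozin and 3.90 ± 0.484 FPKM on the diet alone (SD, n = 3 each; limma adjusted p = 0.0541).

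Kap was the most abundant gene in all 6 libraries, and its difference between the groups was within their spread. It was at 61596, 70176 and 56825 FPKM with tofogliflozin, against 62010, 45152 and 63006 FPKM on the diet alone. The groups overlapped, and diet replicate 2 held the lowest value of all. The means were 62866 ± 6765 FPKM with tofogliflozin and 56723 ± 10033 FPKM on the diet alone (SD, n = 3 each), a log2 change of 0.16 ± 0.24 (SE; 95% interval -0.40 to 0.72; limma adjusted p = 0.827). Here and throughout, limma is a moderated linear model over all 12248 tested genes with Benjamini-Hochberg adjustment, and an adjusted p under 0.05 counts as passed. Without diet replicate 2 the log2 change of Kap was 0.0028. Gpx3, the secreted glutathione peroxidase of the kidney, came next in every library, and Kap exceeded it 2.30-fold to 2.77-fold with tofogliflozin and 2.18-fold to 2.71-fold on the diet alone. Kap alone took 10.2%, 11.1% and 9.51% of the total FPKM with tofogliflozin and 9.79%, 7.98% and 10.1% on the diet alone. The mean share was 10.3% ± 0.820 with tofogliflozin and 9.30% ± 1.16 on the diet alone (SD, n = 3 each; exact two-sided permutation test, p = 0.4, where 3 against 3 cannot go below 0.1). The difference of 0.991 points became 0.331 points without diet replicate 2 and 0.565 points without tofogliflozin replicate 2.

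Slco1a1 was lower with tofogliflozin in every library, but did not pass the threshold over all genes. It was at 50.5, 80.8 and 42.3 FPKM with the drug and at 181, 96.4 and 98.6 FPKM on the diet alone. The groups did not overlap, and diet replicate 1 stood far above the rest. The means were 57.9 ± 20.3 FPKM with tofogliflozin and 125 ± 48.4 FPKM on the diet alone (SD, n = 3 each), so the tofogliflozin mean was 46.1% of the diet mean. The log2 change was -1.09 ± 0.29 (SE; 95% interval -1.76 to -0.42; limma unadjusted p = 0.00553, adjusted p = 0.191). It ran from -0.80 without diet replicate 1 to -1.36 without tofogliflozin replicate 2.

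Gusb was likewise lower in every tofogliflozin library and likewise did not pass. It was at 13.5, 11.9 and 11.7 FPKM with tofogliflozin and at 31.0, 14.4 and 16.5 FPKM on the diet alone. The 3 tofogliflozin libraries lay close together and below every diet library, while diet replicate 1 was at about the level of Timd2. The means were 12.4 ± 1.005 FPKM with tofogliflozin and 20.6 ± 9.03 FPKM on the diet alone (SD, n = 3 each), with a log2 change of -0.62 ± 0.24 (SE; 95% interval -1.18 to -0.06; limma unadjusted p = 0.0337, adjusted p = 0.330). Without diet replicate 1 the log2 change was -0.30 (limma adjusted p = 0.468), so that library alone moves the value by more than 1.5 times.

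Cyp7b1, whose product hydroxylates oxysterols and the androgen precursor dehydroepiandrosterone, overlapped between the groups. It was at 50.1, 89.2 and 54.4 FPKM with tofogliflozin and at 56.4, 34.6 and 54.5 FPKM on the diet alone. Tofogliflozin replicate 2 was the highest and diet replicate 2 the lowest, and the other 4 libraries lay between 50.1 and 56.4 FPKM. The log2 change was 0.39 ± 0.25 (SE; 95% interval -0.18 to 0.96; limma adjusted p = 0.550), and 0.14 without tofogliflozin replicate 2 or 0.17 without diet replicate 2. Timd2 had the log2 change nearest 0 of the 5, and its groups overlapped. It was at 35.4, 29.6 and 27.9 FPKM with tofogliflozin and at 31.3, 30.3 and 33.3 FPKM on the diet alone, with a log2 change of -0.04 ± 0.10 (SE; 95% interval -0.26 to 0.19; limma adjusted p = 0.911).

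**Figure D1:**
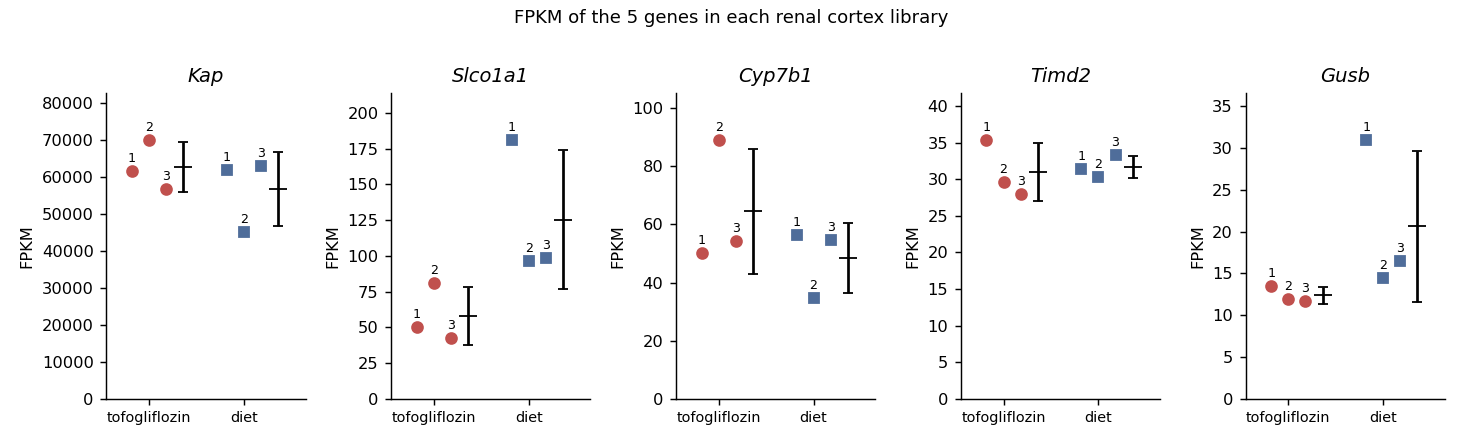
FPKM of Kap, Slco1a1, Cyp7b1, Timd2 and Gusb in the 3 tofogliflozin libraries (circles, left) and the 3 diet libraries (squares, right) of renal cortex, numbered by replicate, with the mean and SD of each group in black. Each panel has its own axis from 0, and only Slco1a1 and Gusb have every tofogliflozin library below every diet library.

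Of the 5 genes, 0 passed at a limma adjusted p under 0.05, against 31 of 12248 genes tested (0.253%). By direction, 0 were called higher and 0 lower, against 0.196% and 0.0572% of all genes. At an unadjusted p under 0.05 there were 2 of 5, against 13.1% of all genes, and 1 of 5 without tofogliflozin replicate 2, without tofogliflozin replicate 3 or with no filter on low values. Both were lower with the drug, where 6.39% of all genes were lower and 6.7% higher at that level. The groups did not overlap for 2 of 5 genes, against 18.5% of all genes. Both were lower, where 8.86% of all genes were lower and 9.63% higher without overlap. By level, the order with tofogliflozin was Kap, Cyp7b1, Slco1a1, Timd2 and Gusb, and Cyp7b1 (50.1 to 89.2 FPKM) and Slco1a1 (42.3 to 80.8 FPKM) overlapped. On the diet alone it was Kap, Slco1a1, Cyp7b1, Timd2 and Gusb, where only Timd2 (30.3 to 33.3 FPKM) and Gusb (14.4 to 31.0 FPKM) overlapped. The lists below, like the 5 genes, were drawn up with earlier results of these data known. In whole tissue, fewer cells of a type and less RNA per cell cannot be told apart.

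Other genes known in mice as androgen-regulated or male-biased in kidney had mostly lower values with tofogliflozin. Of 12 such genes, all of which passed the filter, 10 had a log2 change below 0, as did 6161 of all 12248. The median was -0.25, against -0.000755 over all genes. At a limma adjusted p under 0.05, 0 of the 12 passed. At an unadjusted p under 0.05, 6 were lower and 0 higher, against 6.39% and 6.7% of all genes. Those 6 became 4 when diet replicate 1 was left out and 3 when tofogliflozin replicate 3 was left out. They became 8 without diet replicate 2 and 7 with array weights. The 0 higher became 1 under each of the 4 scalings and without tofogliflozin replicate 1 or diet replicate 1. In 5 of the 12 every tofogliflozin library lay below every diet library, as for 8.86% of all genes.

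Odc1, ornithine decarboxylase, the first enzyme of polyamine synthesis, was at 277, 498 and 260 FPKM with tofogliflozin and at 1079, 582 and 636 FPKM on the diet alone. The 6 libraries stood in the same order as for Slco1a1, and the groups did not overlap. Its log2 change was -1.16 ± 0.30 (SE; limma adjusted p = 0.177). Acsm3, a mitochondrial medium-chain acyl-CoA synthetase, was at 95.1, 193 and 73.4 FPKM with tofogliflozin and at 453, 165 and 272 FPKM on the diet alone, and its groups overlapped through tofogliflozin replicate 2 and diet replicate 2. Nudt19, a peroxisomal hydrolase of coenzyme A, averaged 499.9 ± 36.8 FPKM with tofogliflozin and 640.5 ± 60.7 FPKM on the diet alone (SD, n = 3 each), a log2 change of -0.36 (limma adjusted p = 0.205). Cyp2j13, a cytochrome P450 gene, averaged 97.9 ± 3.84 FPKM with tofogliflozin and 127 ± 16.3 FPKM on the diet alone, and Slc22a30, of the organic anion transporter family, 77.1 ± 9.37 FPKM with tofogliflozin and 106 ± 20.5 FPKM on the diet alone (limma adjusted p = 0.201 and 0.237). Both had no overlap between the groups.

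The 2 genes above 0 were Cyp4a12a and Cyp2d9, at log2 changes of 0.13 and 0.24. Cyp4a12a, the male-specific fatty acid hydroxylase, was at 36.7, 159 and 33.9 FPKM with tofogliflozin and at 134, 32.7 and 34.3 FPKM on the diet alone. It was thus high in 1 mouse of each group, and its change was below 0 without tofogliflozin replicate 2, diet replicate 2 or diet replicate 3 and with array weights. Cyp4b1, an abundant monooxygenase, averaged 2023 ± 254 FPKM with tofogliflozin and 2352 ± 522 FPKM on the diet alone and Cyp2e1 1184 ± 55.5 FPKM with tofogliflozin and 1318 ± 297 FPKM on the diet alone, with overlapping groups.

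In each group, 1 mouse had the highest value for most of these genes. Of the 17 androgen-regulated or male-biased genes (the 5 and the 12), 14 were highest in diet replicate 1 among the diet libraries, against 31.8% of all genes tested. Likewise 14 of the 17 were highest in tofogliflozin replicate 2 among the tofogliflozin libraries, against 35.1% of all genes. These genes share their libraries, so the counts describe these mice. Slco1a1 was at 181 FPKM in diet replicate 1 and 80.8 FPKM in tofogliflozin replicate 2, the highest of its group in each case.

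**Figure D2:**
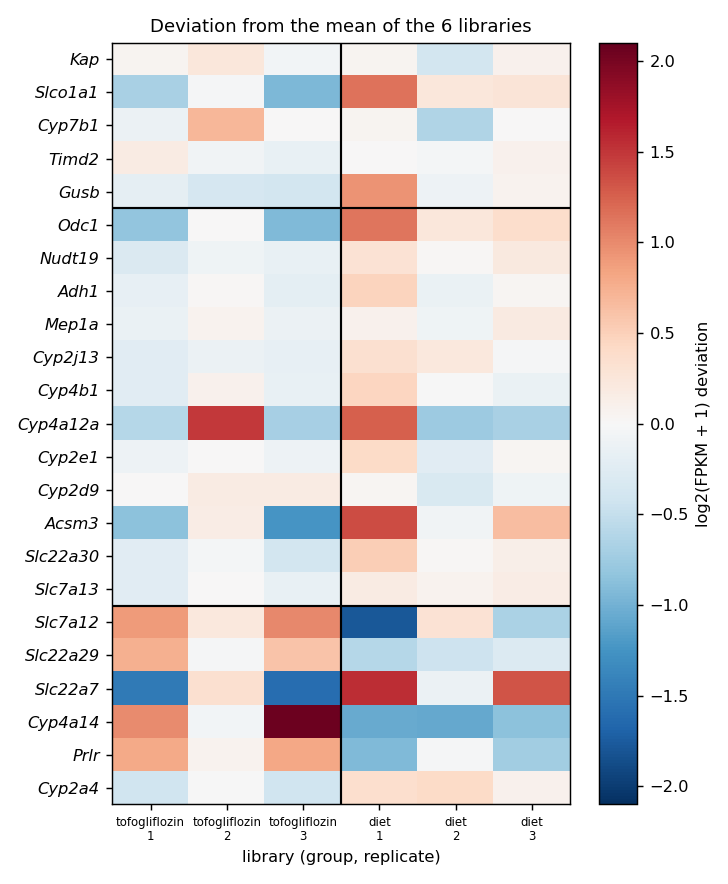
Deviation of log2(FPKM + 1) from the mean of the 6 libraries, by gene (down) and library (across, tofogliflozin left of the black line and diet right of it), with the 5 genes on top, the 12 other androgen-regulated or male-biased genes below them and 6 female-biased genes at the bottom. Red is above and blue below the mean of the 6 libraries. Slc22a29 passed the filter only through the tofogliflozin libraries, and Cyp2a4 is listed as female-biased for liver. Slco1a1, Odc1 and Acsm3 are reddest in diet replicate 1, where Slc7a12 and Prlr are at their lowest.

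Over the 6 libraries, the patterns most like that of Slco1a1 among 6158 genes averaging at least 10 FPKM were those of Acy3, an aminoacylase of the proximal tubule (Pearson r = 0.997), Odc1 (0.995) and Psmd2, a proteasome subunit (0.995). Acy3 was at 1427, 2030 and 1312 FPKM with tofogliflozin and at 3329, 2230 and 2364 FPKM on the diet alone. The nearest patterns to Gusb were those of Cblc (0.983), Trmt2b (0.981) and Acly (0.976), and to Kap those of Isoc2a (0.994), Clta (0.992) and Ppp2ca (0.990). Kap was closer to Cyp7b1 (0.907) than to any other gene of the androgen lists, both being lowest in diet replicate 2 and highest in tofogliflozin replicate 2. Cyp7b1 was closest to Eif2s1 (0.987), Mgat2 (0.983) and Hnf4aos (0.976), and Timd2 to Pcbp3 (0.949), Wdr45b (0.946) and Fuom (0.945). With 6 libraries in 2 groups and 6158 candidates, many genes reach a high r, and these values are descriptions only.

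The female-biased list held 7 genes known as such in mouse kidney or liver, of which 6 passed the filter and Abcc3 did not. Slc22a29 passed it only through the tofogliflozin libraries and is left out of the counts. Of the other 5, 0 passed at a limma adjusted p under 0.05. At an unadjusted p under 0.05, 3 were higher and 2 lower, against 6.7% and 6.39% of all genes. The 2 lower were Slc22a7 and Cyp2a4, and Cyp2a4 is listed for its bias in liver. The 2 became 1 once diet replicate 1 was left out. Prlr, the prolactin receptor, was at 33.1, 19.7 and 33.4 FPKM with tofogliflozin and at 9.28, 18.4 and 10.8 FPKM on the diet alone. Its groups did not overlap, and its log2 change was 1.12 ± 0.27 (SE; limma adjusted p = 0.148). Slc7a12, an amino acid transporter, was at 26.4, 16.3 and 28.7 FPKM with tofogliflozin and at 3.31, 17.3 and 8.33 FPKM on the diet alone, its lowest value being in diet replicate 1. The groups overlapped through replicate 2 of each, and the log2 change was 1.42 ± 0.46 (SE; limma adjusted p = 0.247), or 0.89 without diet replicate 1. For both genes the values of Slco1a1 ran the other way over the 6 libraries (r = -0.938 for Prlr and -0.940 for Slc7a12).

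Among the rest of that list, Slc22a29, an orphan relative of organic anion transporters, was at 2.57, 1.09 and 2.23 FPKM with tofogliflozin and at 0.409, 0.582 and 0.751 FPKM on the diet alone. Cyp4a14, a fatty acid hydroxylase and PPARα target, was at 59.3, 27.9 and 125 FPKM with tofogliflozin and at 13.5, 13.2 and 15.6 FPKM on the diet alone (limma adjusted p = 0.124, and 0.0443 without tofogliflozin replicate 2). Slc22a7, an organic anion transporter, and Cyp2a4, a steroid hydroxylase of female liver, were the 2 with lower values. Slc22a7 was at 8.53, 32.4 and 7.78 FPKM with tofogliflozin and at 77.1, 23.3 and 65.3 FPKM on the diet alone. Cyp2a4 averaged 205 ± 35.3 FPKM with tofogliflozin and 302 ± 33.4 FPKM on the diet alone, with no overlap (SD, n = 3 each; limma adjusted p = 0.148). It is listed for its bias in liver, and its sex bias in kidney was not tested here. Over the 6 libraries the values of Cyp2a4 ran with those of Slco1a1 (r = 0.895), as did those of Slc22a7 (r = 0.919).

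**Figure D3:**
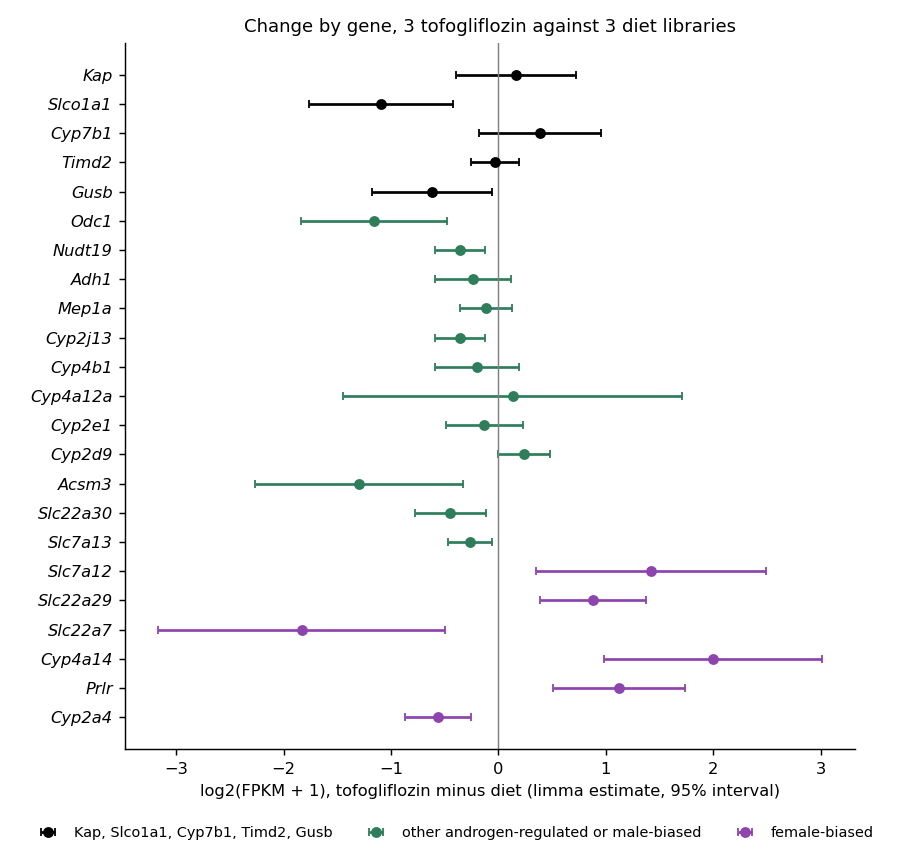
Log2 change (limma estimate on log2(FPKM + 1), tofogliflozin minus diet, with its 95% interval) of the 5 genes (black), 12 other androgen-regulated or male-biased genes (green) and 6 female-biased genes (purple). Points left of 0 were lower with tofogliflozin. Among the female-biased genes, Slc22a29 passed the filter only through the tofogliflozin libraries and is left out of the counts, and Cyp2a4 is listed for liver. No gene shown passed at an adjusted p under 0.05, and the interval of Cyp4a12a, from -1.45 to 1.71, is the widest.

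Of 16 receptors and transcription factors tied to this programme, all tested, 0 passed at a limma adjusted p under 0.05. At an unadjusted p under 0.05, 3 were higher (Prlr, Cebpb and Dbp) and 0 lower, against 6.7% and 6.39% of all genes. The 3 became 1 without tofogliflozin replicate 2 and 5 without diet replicate 2. Cebpb, a C/EBP factor, was at 15.5, 19.5 and 19.8 FPKM with tofogliflozin and at 12.8, 4.97 and 13.3 FPKM on the diet alone. Esr1, the estrogen receptor, averaged 3.07 ± 0.183 FPKM with tofogliflozin and 2.70 ± 0.212 FPKM on the diet alone, and Ghr, the growth hormone receptor, 266 ± 13.4 FPKM with tofogliflozin and 284 ± 25.1 FPKM on the diet alone (SD, n = 3 each; limma adjusted p = 0.603 and 0.713). Bcl6, a repressor that in mouse liver is male-biased, was at 13.9, 30.8 and 26.5 FPKM with tofogliflozin and at 6.20, 57.1 and 7.19 FPKM on the diet alone, so that diet replicate 2 stood apart.

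Of 10 enzymes of androgen metabolism, 8 passed the filter and 0 passed at a limma adjusted p under 0.05. At an unadjusted p under 0.05, 3 were higher and 2 lower, against 6.7% and 6.39% of all genes. The 3 became 1 when any library but diet replicate 3 was left out. The 2 became 1 without tofogliflozin replicate 1, tofogliflozin replicate 3 or diet replicate 1, and 4 without diet replicate 2. Srd5a3, of the steroid reductase family, averaged 9.22 ± 0.706 FPKM with tofogliflozin and 11.5 ± 0.756 FPKM on the diet alone, and Hsd3b4, a kidney enzyme of 3-ketosteroid reduction, 53.1 ± 8.65 FPKM with tofogliflozin and 38.0 ± 7.37 FPKM on the diet alone (SD, n = 3 each; limma adjusted p = 0.223 and 0.267). Hsd17b4 averaged 119 ± 12.5 FPKM with tofogliflozin and 100.1 ± 5.11 FPKM on the diet alone, and Srd5a1, which makes dihydrotestosterone from testosterone, 16.0 ± 1.505 FPKM with tofogliflozin and 13.7 ± 0.534 FPKM on the diet alone (limma adjusted p = 0.312 and 0.339). Srd5a2, the second such reductase, was at 6.81, 5.32 and 5.11 FPKM with tofogliflozin and at 12.6, 5.20 and 9.08 FPKM on the diet alone, again highest in diet replicate 1. Hsd17b3, which makes testosterone in the testis, was listed at 0 in all 6 libraries.

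Of 6 targets that several steroid receptors share, 1 passed at a limma adjusted p under 0.05, against 0.253% of all genes. At an unadjusted p under 0.05, 4 were higher and 0 lower, against 6.7% and 6.39% of all genes. Tsc22d3, the glucocorticoid-induced leucine zipper, rose, with 60.0, 65.0 and 73.6 FPKM on tofogliflozin and 29.9, 21.8 and 29.9 FPKM on the diet alone (log2 change 1.26 ± 0.13 SE; limma adjusted p = 0.0188). Its call was lost with no filter on low values and without diet replicate 1 or any 1 of the tofogliflozin replicates (highest adjusted p = 0.106). Sgk1, a kinase of sodium transport, averaged 66.1 ± 10.3 FPKM with tofogliflozin and 28.7 ± 6.87 FPKM on the diet alone, and Zbtb16, a zinc finger factor, 5.10 ± 1.46 FPKM with tofogliflozin and 1.71 ± 0.719 FPKM on the diet alone (SD, n = 3 each; limma adjusted p = 0.0541 and 0.0926). Sgk1 passed in 5 of 15 other settings (lowest adjusted p = 0.0299, highest 0.213). Per1, of the circadian clock, averaged 32.2 ± 3.41 FPKM with tofogliflozin and 17.5 ± 7.43 FPKM on the diet alone (limma adjusted p = 0.229). Fkbp5, a co-chaperone of steroid receptors, averaged 66.0 ± 14.2 FPKM with tofogliflozin and 49.9 ± 13.8 FPKM on the diet alone, with overlapping groups.

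**Figure D4:**
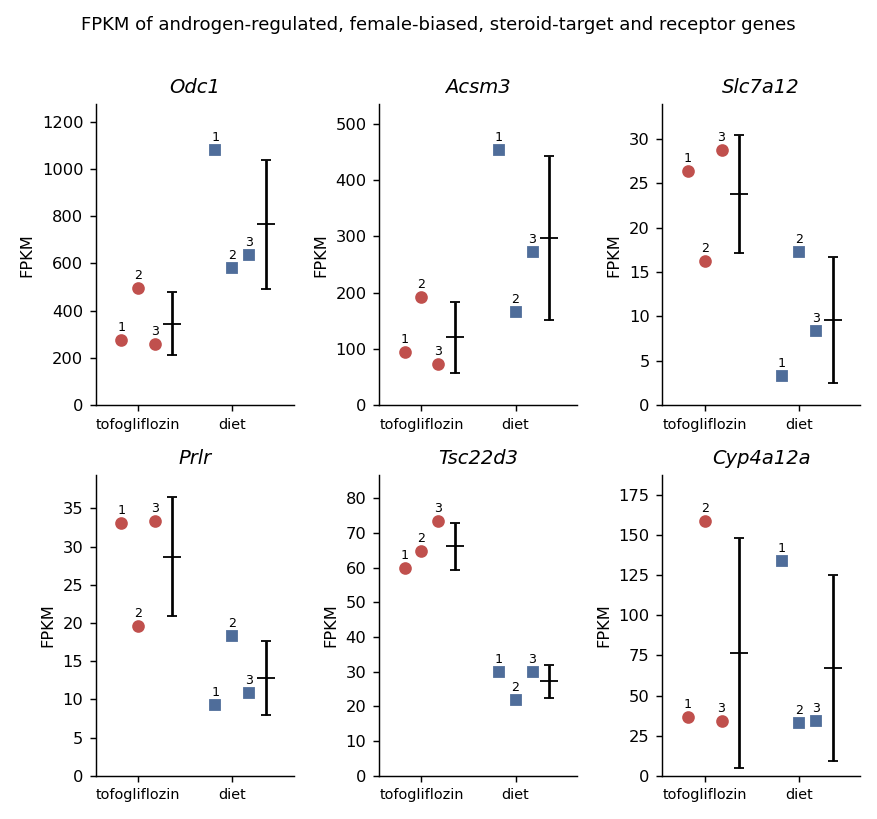
FPKM of Odc1, Acsm3, Slc7a12, Prlr, Tsc22d3 and Cyp4a12a in the 3 tofogliflozin libraries (circles, left) and the 3 diet libraries (squares, right), numbered by replicate, with the mean and SD of each group in black and each axis from 0. Odc1 lies lower and Prlr and Tsc22d3 lie higher in every tofogliflozin library, while Cyp4a12a is high in tofogliflozin replicate 2 and diet replicate 1.

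The relatives of the 5 genes were compared next. Of 11 other organic anion transporting polypeptide genes, 6 passed the filter and 0 passed at a limma adjusted p under 0.05. At an unadjusted p under 0.05, 1 was lower, against 6.39% of all genes. Slco1a6, a neighbour of Slco1a1, was at 70.0, 69.9 and 64.6 FPKM with tofogliflozin and at 71.3, 59.5 and 81.3 FPKM on the diet alone. Its mean was near that of Slco1a1 with tofogliflozin (68.2 and 57.9 FPKM) but below it on the diet alone (70.7 and 125 FPKM). Its groups overlapped, with a log2 change of -0.04 ± 0.11 (SE; limma adjusted p = 0.913). Slco3a1 averaged 73.5 ± 8.26 FPKM with tofogliflozin and 100.3 ± 11.0 FPKM on the diet alone, with no overlap (SD, n = 3 each; limma adjusted p = 0.155). Of the TIM family, Havcr1, the kidney injury molecule, was at 0.979, 1.39 and 0.187 FPKM with tofogliflozin and at 0.422, 0.0701 and 0.0646 FPKM on the diet alone, and Havcr2 was at or below 0.930 FPKM throughout. Timd4 was listed at 0, and none of these 3 relatives of Timd2 passed the filter.

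In the oxysterol and bile acid pathway of Cyp7b1, 5 of 10 genes passed the filter and 0 passed at a limma adjusted p under 0.05. Amacr, the racemase of branched-chain and bile acid intermediates, averaged 130 ± 20.7 FPKM with tofogliflozin and 183 ± 31.3 FPKM on the diet alone, with no overlap, and Cyp27a1, the sterol 27-hydroxylase, 36.5 ± 2.31 FPKM with tofogliflozin and 30.4 ± 4.52 FPKM on the diet alone (SD, n = 3 each; limma adjusted p = 0.223 and 0.379). Cyp7a1, the liver enzyme that opens the classic route, was listed at 0 in all 6 libraries.

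Among 14 genes around Gusb, chiefly of lysosomal glycosaminoglycan breakdown and with Ces1e included, 1 passed, against 0.253% of all genes. Hyal1, a lysosomal hyaluronidase that may share reads with the overlapping genes Naa80 and Hyal3, rose, with a mean of 17.4 ± 2.62 FPKM on tofogliflozin and 5.04 ± 0.803 FPKM on the diet alone (SD, n = 3 each; limma adjusted p = 0.00769). It did not pass with no filter on low values (adjusted p = 0.0663). Of the 14, 5 had a log2 change above 0 and 9 below, or 8 above and 6 below without diet replicate 1. Galns, a sulfatase, averaged 42.7 ± 4.39 FPKM with tofogliflozin and 60.9 ± 10.3 FPKM on the diet alone and Arsb, arylsulfatase B, 81.7 ± 6.58 FPKM with tofogliflozin and 104 ± 14.4 FPKM on the diet alone, both without overlap (limma adjusted p = 0.179 and 0.253). Ces1e, the esterase egasyn that anchors beta-glucuronidase in the endoplasmic reticulum of mouse cells, was higher in every tofogliflozin library than in any diet library, at 72.6 ± 1.74 FPKM with tofogliflozin and 56.5 ± 8.88 FPKM on the diet alone (limma adjusted p = 0.215). Hexa, a subunit of beta-hexosaminidase, had a log2 change of -0.01.

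Markers of the late proximal tubule, like Slco1a1 and Gusb, had mostly lower values with tofogliflozin. The sum of the 4 markers Slc7a13, Slc5a8, Atp11a and Slc3a1 was 1003 to 1092 FPKM with tofogliflozin and 1200 to 1283 FPKM on the diet alone. Of the 4, 3 were lower in every tofogliflozin library and Slc3a1 was higher. Over all genes, 8.86% were lower and 9.63% higher without overlap. Of the 4 markers, 0 passed at a limma adjusted p under 0.05. At an unadjusted p under 0.05, 3 were lower, against 6.39% of all genes. The 3 became 1 without tofogliflozin replicate 1 or diet replicate 1. Atp11a, a phospholipid flippase, had the smallest p, at 252 ± 18.2 FPKM with tofogliflozin and 371 ± 33.9 FPKM on the diet alone (SD, n = 3 each; limma adjusted p = 0.0682). It passed in 5 of 15 other settings, the 4 scalings and array weights (lowest adjusted p = 0.0343, highest 0.303). Slc7a13 is also one of the 12 male-biased genes. The 6 markers of the early proximal tubule summed to 746 to 844 FPKM with tofogliflozin and 724 to 811 FPKM on the diet alone. Slc5a12, a lactate transporter, averaged 161 ± 25.4 FPKM with tofogliflozin and 118 ± 8.58 FPKM on the diet alone, without overlap (SD, n = 3 each; limma adjusted p = 0.199). Slc5a2, which encodes the drug's target, averaged 164 ± 3.68 FPKM with tofogliflozin and 181 ± 36.3 FPKM on the diet alone, with overlapping groups (limma adjusted p = 0.746). The 13 markers of other cortical cells summed to 2379 to 2516 FPKM with tofogliflozin and 2101 to 2779 FPKM on the diet alone. Most of these sums was Umod, averaging 1640 FPKM with tofogliflozin and 1802 FPKM on the diet alone. Of 12 markers tested, 0 passed at a limma adjusted p under 0.05. At an unadjusted p under 0.05, 2 were higher (Pvalb and Aqp2) and 1 lower (Csf1r), against 6.7% and 6.39% of all genes. These counts became 0 higher and 4 lower without diet replicate 1, and 2 higher and 3 lower without diet replicate 3. Without tofogliflozin replicate 2 they were 0 higher and 1 lower. Csf1r, of macrophages, averaged 13.4 ± 2.24 FPKM with tofogliflozin and 18.4 ± 1.504 FPKM on the diet alone (SD, n = 3 each; limma adjusted p = 0.198). For Adgre1 and Cd68, also of macrophages, the groups overlapped. The part of cell composition in the values of the 5 genes was not tested.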

How the data were processed

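Stranded mRNA libraries of renal cortex, per the labels' protocols, were grouped by label with 3 mice each. The authors deposited FPKM per gene. The submitters' processing notes name Cuffdiff 2.2.1, TopHat2 2.1.1, Bowtie2 2.2.8, SAMtools 0.1.18 and build mm10. No label used here gives the annotation, the strand setting or any scaling between libraries. Upper quartiles of FPKM were 10.5 to 10.6 and totals 565754 to 633338, and pairs of libraries correlated at 0.980 to 0.990 on the log2 scale.

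Genes reaching 1 FPKM in 3 libraries (12248) entered limma 3.58.1 (R 4.3.3) as log2(FPKM + 1), which understates changes of low genes. The trended, two-sided p-values were adjusted by Benjamini-Hochberg over all of them, with a threshold of 0.05. The code was tested on simulated data. Fragment depth is an estimate: 85.7% of 9056 low values were whole multiples of a step within 1%, and 643 single-transcript genes gave the scale. Promoters and positions came from RefSeq and the GRCm38 annotation.

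The 5 genes, the lists and the naming rule (all 5 genes, up to 4 list genes of smallest p, the 3 genes most alike by Pearson's r of log2 values, predicted genes left out) were chosen with earlier results of these data known. Acsm3, Slc7a12, Slc22a7, Cyp4a12a, Cyp2d9, Cyp4b1, Cyp2e1, Esr1, Ghr, Bcl6, Srd5a2, Hsd17b3, Fkbp5, Slco1a6, Cyp7a1, Hexa, Slc5a2, Csf1r, Umod, Adgre1 and Cd68 fall outside that rule or were picked for their role. Some list genes are counted but not reported here. Alternatives were another pseudocount, 2 other filters, 4 scalings, a replicate block, array weights and leaving out each library. For the lists they were added after the data were seen. Matplotlib 3.10.9 (Python 3.11.15) drew the figures.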

Additional observations from a re-analysis of the deposited data

How the results depend on the processing

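No setting called any of the 5 genes. Slco1a1 kept a log2 change of -1.36 to -0.80 over the 15 alternatives (limma adjusted p 0.0874 to 0.507), and Gusb -0.83 to -0.30 (0.154 to 0.629). Cyp7b1 stayed above 0 (0.14 to 0.55), and Kap lay between 0.00 and 0.24, at 0 under quantile normalization, which gives the top gene of every library the same value. Timd2 ran from -0.13 to 0.033 when 1 library was left out, and was above 0 only without tofogliflozin replicate 3. The Kap share difference ran from 0.331 (without diet replicate 2) to 1.41 points.

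The count of all genes called, 31, was 1 with no filter, 20 with a filter of 5 FPKM, 47 and 50 scaled to the same upper quartile or total, 123 with array weights, and 2 to 66 with 1 library left out. It was 4, 18 and 2 without tofogliflozin replicates 1, 2 and 3, and 9, 66 and 57 without diet replicates 1, 2 and 3. The cause was not tested. Same-numbered libraries had little correlation in their deviations from the group means (r = -0.0549, -0.0623 and 0.0514). Whether the replicate numbers paired the mice cannot be told from these values. With the number as a replicate block 26 genes were called. With it, enzymes of androgen metabolism numbered 1 higher and 3 lower, and late proximal tubule markers 1 lower, at an unadjusted p under 0.05. At that level the 12 androgen-regulated or male-biased genes numbered 5 lower, and the receptors and transcription factors 2 higher. Markers of other cortical cells numbered 2 higher and 2 lower, the oxysterol pathway 0 higher and the sex-linked genes 1 higher. The block left the 5 log2 changes as they were, 0 of the 5 passing. For the Kap share, an exact test that flips the signs of the same-numbered differences gave p = 0.75. It has fewer arrangements than the permutation test over all libraries used above, so its smallest possible p is higher.

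For Gusb, the scarcest of the 5 genes, the estimated counting error of 3.99% to 6.39% stands beside SDs between mice of 1.005 around 12.4 FPKM with tofogliflozin and 9.03 around 20.6 FPKM on the diet alone.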
